A study of Mus musculus with 12 samples.

Results

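The genes described here are 38 genes of the machinery that carries out class switch recombination after the cytidine deaminase AID has acted, together with the factors that bring AID to its target. They were chosen by symbol, matched to Ensembl identifiers of the GRCm38 annotation, and all 38 were found among the 55536 features of the count table. They fall into 4 groups by role, with 6 genes of base excision and mismatch repair, 14 of break signalling, 8 of end joining and 10 AID targeting cofactors. The libraries were made from cultured B cells of the spleen, taken from 3 control mice and 3 Pdap1-deficient mice (Pdap1F/F) and harvested 48 h after stimulation. Both genotypes carry 1 copy of a Cre that acts in cells of the B lineage and leaves other cells with an intact Pdap1, and the Pdap1-deficient mice lose the floxed exon of Pdap1. The study's mice were on a C57BL/6 background, of both sexes and in age-matched groups, and the ages of the individual mice are not given in the labels. Cells of each mouse were grown in 2 ways, with LPS and IL-4 (LPS-IL-4), which directs switching to IgG1, and with LPS, BAFF and TGFβ (LPS-BAFF-TGFβ), which directs switching to IgG2b, so that the 12 libraries form 4 groups of 3.

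Class switch recombination joins distant repeat-rich switch regions of the heavy chain locus. AID turns cytosine into uracil in these regions while they are transcribed. Uracil is removed by the glycosylase Ung and the abasic site is cut by an endonuclease of the Apex family, or the mismatch is recognised by a heterodimer that contains Msh6 and resected by Exo1, and closely spaced nicks become double-strand breaks. The kinase Atm then marks chromatin through H2afx, Mdc1, Rnf8 and Rnf168 recruit Trp53bp1 and Rif1, which shield the ends from resection, and the ends are joined by Xrcc5, Xrcc6, Xrcc4, Lig4 and their partners. Supt5, the RNA exosome (Exosc3, Exosc10), replication protein A (Rpa1, Rpa2, Rpa3), the RNA-binding protein Ptbp2 and protein kinase A (Prkaca, Prkar1a) act upstream, on the access of AID to transcribed switch DNA.

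The libraries held 9386667 to 15869143 counts with LPS-IL-4 and 4579793 to 8303482 with LPS-BAFF-TGFβ, except for control mouse 1 with LPS-BAFF-TGFβ, which held 69500640. Levels are given as CPM, that is, counts scaled to library size with TMM factors over the 12 libraries. Pdap1 itself was at 80.3 to 198.8 CPM in the control libraries and at 23.0 to 29.9 CPM in the Pdap1-deficient ones, without overlap. The constant region transcript Ighg1 was at 128.7 CPM or more in each LPS-IL-4 library and at 6.40 CPM or less in each LPS-BAFF-TGFβ library. The deeply sequenced library stood apart from its group in several members, and its values are given beside them. Pdap1-deficient mice 2 and 3 held more of 10 myeloid markers (summed 317.2 and 33.8 CPM with LPS-IL-4, 550.02 and 79.0 CPM with LPS-BAFF-TGFβ) than mouse 1 and the controls (5.22 to 24.8 CPM over both stimulations). Of these 10 markers Elane had no count in any library of the 4 groups, Mpo had none in control mice with LPS-IL-4 and Pdap1-deficient mice with LPS-BAFF-TGFβ, and Fcgr1 had none in control mice with LPS-IL-4. The 10 T cell markers summed to 14.4 to 49.1 CPM, the 7 NK cell markers to 0.779 to 5.72 CPM and the 8 erythroid markers to 8.18 to 24.1 CPM. The 8 B cell markers summed to 3268 to 3706 CPM with LPS-IL-4 and to 2529 to 2835 CPM with LPS-BAFF-TGFβ. Of these, the B cell receptor subunit Cd79b was at 240.5 to 681 CPM and lower with LPS-BAFF-TGFβ, while Blk was higher there. The Y-linked gene Ddx3y was at 182.1 CPM or more in control mouse 2 and Pdap1-deficient mice 2 and 3 in both stimulations and at 0.175 CPM or less in the others, so that 1 control mouse and 2 Pdap1-deficient mice were male.

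All 38 members were detected in each of the 12 libraries, the fewest counts being those of Nhej1 (15 to 153 per library), and all passed the filter on low counts in every comparison. Genes were ranked by CPM per kb of exon length, since CPM alone favours long genes. Parp1, which senses DNA breaks and acts in alternative end joining, had the highest mean over the 12 libraries at 80.2 CPM per kb (range 49.5 to 113). Atm followed at 62.4 CPM per kb (range 34.3 to 90.7), and Msh6, the mismatch recognition subunit, at 56.8 CPM per kb (range 52.4 to 61.3). The lowest per kb was Rnf8, the first ubiquitin ligase of the break response, at 1.18 CPM per kb (range 0.925 to 1.60). Of its 11703 exon bases 13.2% lie on exons of Gm28043 on the same strand. Within each pair of neighbours in this order the ranges over the 12 libraries overlapped, so the order is firm only between genes further apart.

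In base excision and mismatch repair, Msh6 had the highest level per kb and Apex2, the second member of the abasic endonuclease family, the lowest at 3.38 CPM per kb (range 2.84 to 4.15). Among the break signalling genes Atm had the highest level per kb and Rnf8 the lowest. In end joining the order ran from Parp1 down to Lig4, the ligase that seals the ends, at 2.21 CPM per kb (range 1.53 to 3.04). Of the AID targeting cofactors, Prkar1a, the regulatory subunit of protein kinase A, had 53.3 CPM per kb (range 47.1 to 69.2) and Ptbp2, a splicing regulator that binds switch transcripts, 9.91 CPM per kb (range 6.34 to 12.2). The cofactors and the mismatch subunit were thus measured above the ligase complex members Xrcc4 (3.71 CPM per kb), Nhej1 (2.26 CPM per kb) and Lig4.

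**Figure D1:**
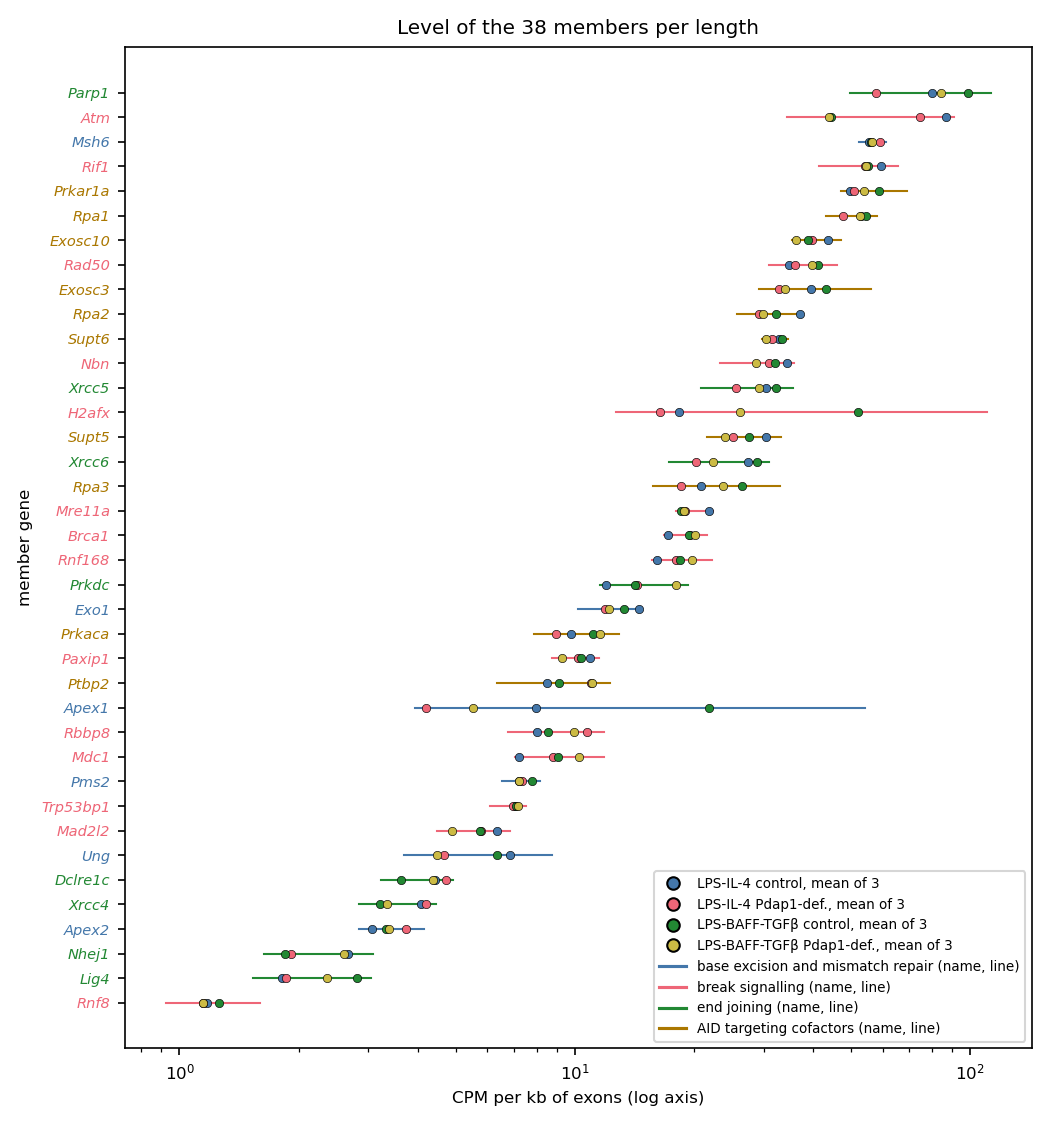
Level of the 38 members, in CPM per kb of exon length on a log axis, ordered by the mean over the 12 libraries. Points are the means of the 3 mice of a group, lines span the lowest to the highest library, and the colour of the name and line gives the role. Parp1, Atm and Msh6 stand at the top and Rnf8, Lig4 and Nhej1 at the bottom, and Apex1 and H2afx have the widest lines.

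Most members varied little between mice. The median coefficient of variation over the 38 members was 4.93% in control and 10.2% in Pdap1-deficient mice with LPS-IL-4, and 12.3% and 9.74% with LPS-BAFF-TGFβ. In the control LPS-BAFF-TGFβ group 9 members varied by more than 20%, against 2 to 4 in the other groups, and Apex1 varied by 129.1%. Summed over the 38 members, the level was 5145 to 5383 CPM in control and 4595 to 5093 CPM in Pdap1-deficient mice with LPS-IL-4, which do not overlap, and 4967 to 5170 CPM and 4562 to 5120 CPM with LPS-BAFF-TGFβ, which do. Such a sum is weighted to abundant members. With LPS-IL-4 the control and Pdap1-deficient means were 897 and 769.5 CPM for Atm, 422 and 306 CPM for Parp1, and 626 and 570 CPM for Rif1. None of these had an adjusted p under 0.05 there in edgeR, and Atm and Rif1 overlapped between the genotypes.

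In at least 1 comparison 5 members passed the threshold, an adjusted p under 0.05 in the quasi-likelihood test of edgeR, adjusted by Benjamini and Hochberg's method over all genes tested. They were Apex1, Atm, H2afx, Lig4 and Parp1. The windows from 250 bases before to 50 bases after the annotated start are printed for the 4 of these that a promoter table of RefSeq (build GRCm38.p6) holds, to show the DNA upstream of the genes that moved. Of the 38 members, 30 matched an entry there, with 39 windows. Capitals mark matches, on either strand, to the GC box, whose letters are GGGCGG, or to the box named CCAAT after its letters. A match on the other strand is seen here as the reverse complement. Lig4 has 2 windows, and the one with matches is shown.
Atm, chr9:53536622-53536921, minus strand: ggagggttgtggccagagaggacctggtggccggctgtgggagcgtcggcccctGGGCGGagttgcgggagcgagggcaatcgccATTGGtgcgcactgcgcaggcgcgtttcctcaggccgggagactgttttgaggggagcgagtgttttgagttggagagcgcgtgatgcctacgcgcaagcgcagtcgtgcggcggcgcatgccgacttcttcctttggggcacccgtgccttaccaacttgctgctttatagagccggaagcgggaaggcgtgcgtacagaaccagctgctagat
Parp1, chr1:180568641-180568940, plus strand: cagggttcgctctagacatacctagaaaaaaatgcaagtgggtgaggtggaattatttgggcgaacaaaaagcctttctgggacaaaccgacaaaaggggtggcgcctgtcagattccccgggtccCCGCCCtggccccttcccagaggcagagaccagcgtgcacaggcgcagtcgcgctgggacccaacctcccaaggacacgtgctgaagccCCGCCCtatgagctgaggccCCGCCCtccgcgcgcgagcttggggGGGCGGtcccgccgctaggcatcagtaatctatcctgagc
Apex1, chr14:50924699-50924998, plus strand: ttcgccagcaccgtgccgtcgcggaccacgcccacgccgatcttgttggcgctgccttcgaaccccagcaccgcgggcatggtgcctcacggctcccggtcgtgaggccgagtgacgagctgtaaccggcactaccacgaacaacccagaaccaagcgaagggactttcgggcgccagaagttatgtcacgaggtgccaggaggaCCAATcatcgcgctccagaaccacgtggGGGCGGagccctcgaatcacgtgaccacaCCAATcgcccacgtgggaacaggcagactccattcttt
Lig4, chr8:9976262-9976561, minus strand: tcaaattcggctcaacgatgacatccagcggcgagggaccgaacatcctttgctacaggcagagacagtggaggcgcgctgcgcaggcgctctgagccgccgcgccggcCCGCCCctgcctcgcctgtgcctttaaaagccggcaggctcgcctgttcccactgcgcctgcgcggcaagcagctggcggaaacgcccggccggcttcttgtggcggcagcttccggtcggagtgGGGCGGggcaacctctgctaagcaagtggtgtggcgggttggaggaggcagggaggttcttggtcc
The Parp1 window holds 4 GC boxes and no CCAAT box, that of Atm 1 of each, that of Apex1 1 GC box and 2 CCAAT boxes, and that of Lig4 2 GC boxes.

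Over the 39 windows of the members, 76.9% held a GC box, against 35.7% of the 32851 windows in the table, and 43.6% held a CCAAT box, against 37.4%. The E2F motifs TTTCCCGC and TTTGGCGC were found in 7.69% of the member windows and 1.56% of all, in the windows of Mdc1, Msh6 and Xrcc6. The cyclic AMP response element TGACGTCA was in 5.13% and 1.79%, in 2 windows of 1 member, Prkar1a. These 2 windows overlap (chr11:109650612-109650911 and chr11:109650699-109650998) and may hold the same site. A gene with more than 1 window counts more than once in these shares. TTC and GAA spaced by 4 bases, the STAT6 motif of IL-4 signalling, stood in 5.13% and 6.95%, once each for Prkar1a and Rpa2. All motifs were searched on both strands and none contains another. None of the 4 printed windows held an E2F, cyclic AMP or STAT6 match.

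The first question was whether loss of Pdap1 changes these genes in cells switching to IgG1. With LPS-IL-4 the differences were small and more often downward: 24 of the 38 members were fitted lower in Pdap1-deficient mice and 14 higher, with a median log2 fold change of -0.14 against 0.021 over all genes tested. Apex1 passed the threshold and was lower, while 0 members were higher at that threshold. Of all genes tested 4.92% passed, against 1 of the 38 members (2.63%), a gap too small to read as a result about the members. With DESeq2 10.5% of the members passed against 4.24% of all 28723 genes with a count. Without the filter on low counts it was 15.8% against 5.9% of the same genes. All members passed that filter, while these 28723 genes include those that did not, so these shares are not like for like. Of the 15074 genes past the filter, DESeq2 called 546 higher and 657 lower. With the replicate block 2.63% of the members passed against 4.25% of those 15074 genes. At an unadjusted p under 0.05, 3 members were higher and 8 lower, against 12.1% and 11.7% of all genes. In 6 members all Pdap1-deficient mice lay above all controls and in 12 below, against 15.5% and 16.1% of all genes.

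Apex1, the abasic endonuclease that cuts behind Ung, was at 8.73, 10.5 and 14.7 CPM in the controls and 6.15, 6.20 and 5.60 CPM in the Pdap1-deficient mice. All 3 Pdap1-deficient mice were below all controls (log2 fold change -0.92, SE 0.21, adjusted p = 0.0359 in edgeR). Its level was low, and 61.7% of its 1422 exon bases lie on exons of Pip4p1 on the opposite strand. Whether the counting used strand is not stated in the sources used here, so how reads on these shared bases were counted is not known. The level of Apex1 per kb, taken over all its exon bases, carries that uncertainty. The call was lost when any of the 3 controls or Pdap1-deficient mouse 3 was left out, and with all 12 libraries in one fit (adjusted p 0.00152 to 0.592 over 14 alternatives).

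Ung, the uracil glycosylase, was at 32.9, 36.9 and 42.8 CPM in the controls and 31.0, 22.3 and 23.3 CPM in the Pdap1-deficient mice. The groups did not overlap, and the difference did not pass (log2 fold change -0.56, SE 0.16, adjusted p = 0.0659 in edgeR). Exo1, the exonuclease that resects from the mismatch, was at 124, 122 and 121 CPM and 109.9, 85.9 and 105 CPM, also without overlap (log2 fold change -0.30, SE 0.12, adjusted p = 0.159 in edgeR). The other members of the group had log2 fold changes of 0.012 (Pms2, the partner subunit in mismatch incision), 0.09 (Msh6) and 0.27 (Apex2), and none passed. Over the 6 genes of base excision and mismatch repair, 0 were higher and 1 was lower at the threshold, with a median of -0.14.

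In end joining, 2 genes came closest to the threshold. Xrcc6, which with Xrcc5 forms the Ku ring that holds broken ends, was at 121, 128 and 119.5 CPM in the controls and 96.2, 77.6 and 97.3 CPM in the Pdap1-deficient mice. Every Pdap1-deficient mouse was below every control (log2 fold change -0.45, SE 0.12, adjusted p = 0.0546 in edgeR), and the adjusted p was under 0.05 in 6 of 14 alternatives. Parp1 was at 409, 430.0 and 428 CPM and 353, 262 and 302 CPM, again without overlap (log2 fold change -0.47, SE 0.13, adjusted p = 0.0584 in edgeR, under 0.05 in 4 of 14 alternatives). Prkdc, the catalytic subunit of the DNA-dependent kinase, lay the other way, at 168, 154 and 152 CPM in the controls and 191, 194 and 182 CPM in the Pdap1-deficient mice (log2 fold change 0.25, SE 0.094, adjusted p = 0.143 in edgeR). The remaining end joining genes had log2 fold changes of -0.26 (Xrcc5), -0.49 (Nhej1, a scaffold of the ligase complex), 0.025 (Lig4), 0.035 (Xrcc4, its partner) and 0.077 (Dclre1c, the end-trimming nuclease Artemis). None of the 8 passed, and their median was -0.12.

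The 14 break signalling genes held 0 calls, with a median of -0.072. Rbbp8, which starts resection of ends, was at 98.2, 111 and 91.9 CPM in the controls and 138, 118 and 148 CPM in the Pdap1-deficient mice, and the groups did not overlap (log2 fold change 0.41, SE 0.12, adjusted p = 0.0786 in edgeR). Atm was at 938, 908 and 845 CPM and 751, 690.5 and 867 CPM, with Pdap1-deficient mouse 3 inside the range of the controls (log2 fold change -0.23, SE 0.12, adjusted p = 0.282 in edgeR). The shielding factors Trp53bp1 (-0.022), Rif1 (-0.14) and Mad2l2 (-0.14) had small log2 fold changes. So did the chromatin mark and its readers H2afx (-0.17), Mdc1 (0.27), Rnf8 (-0.038) and Rnf168 (0.15). The break sensors Mre11a, Rad50 and Nbn had log2 fold changes of -0.21, 0.04 and -0.16, Brca1, a factor of resection, of 0.18, and Paxip1, an adaptor of Trp53bp1, of -0.11. Besides Rbbp8, the groups did not overlap in Mre11a, lower in each Pdap1-deficient mouse, and in Mdc1 and Brca1, higher in each.

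Of the 10 AID targeting cofactors 8 were fitted lower and 0 passed, with a median of -0.15. Rpa2, a subunit of the single-strand binding complex that interacts with AID, was at 108, 113 and 112 CPM in the controls and 99.2, 77.0 and 86.3 CPM in the Pdap1-deficient mice, without overlap (log2 fold change -0.35, SE 0.12, adjusted p = 0.102 in edgeR). Supt5, which couples AID to paused RNA polymerase, was at 168, 165 and 192 CPM and 152, 145 and 137 CPM, also without overlap (log2 fold change -0.29, SE 0.10, adjusted p = 0.122 in edgeR). Ptbp2 was higher in each Pdap1-deficient mouse, at 77.2, 86.1 and 70.9 CPM in the controls and 90.1, 112 and 99.1 CPM in the Pdap1-deficient mice (log2 fold change 0.35, SE 0.11, adjusted p = 0.0978 in edgeR). The log2 fold changes of the others were -0.28 (Exosc3) and -0.15 (Exosc10) for the exosome, -0.068 for the histone chaperone Supt6, -0.16 (Rpa1) and -0.17 (Rpa3) for replication protein A, and -0.13 (Prkaca) and 0.018 (Prkar1a) for protein kinase A.

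The count of members past the threshold with LPS-IL-4 turned on single mice, as did that over all genes. Without Pdap1-deficient mouse 2, the one with the most myeloid marker RNA, 3 members were higher (Brca1, Prkdc, Rbbp8) and 3 lower (Xrcc6, Parp1, Apex1), while the calls over all genes rose from 741 to 1459. Without Pdap1-deficient mouse 1, 5 were lower (Xrcc6, Parp1, Rpa2, Ung, Apex1), with 1759 calls over all genes. Without Pdap1-deficient mouse 3 or any 1 control there were 0, with 163 and 69 to 91 calls over all genes. The same test by DESeq2 gave 4 lower (Xrcc6, Parp1, Ung, Apex1), with 1217 calls over all genes. Of 22 genes of S phase, 21 were fitted lower in the Pdap1-deficient mice and 0 passed in edgeR or DESeq2, with a median log2 fold change of -0.11, and their summed level was 5508 to 5631 CPM in the controls and 4532 to 5525 CPM in the Pdap1-deficient mice. The part of cell cycle genes and of myeloid RNA in these differences was not tested, and in bulk RNA fewer cells of a type and less RNA per cell cannot be told apart.

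**Figure D2:**
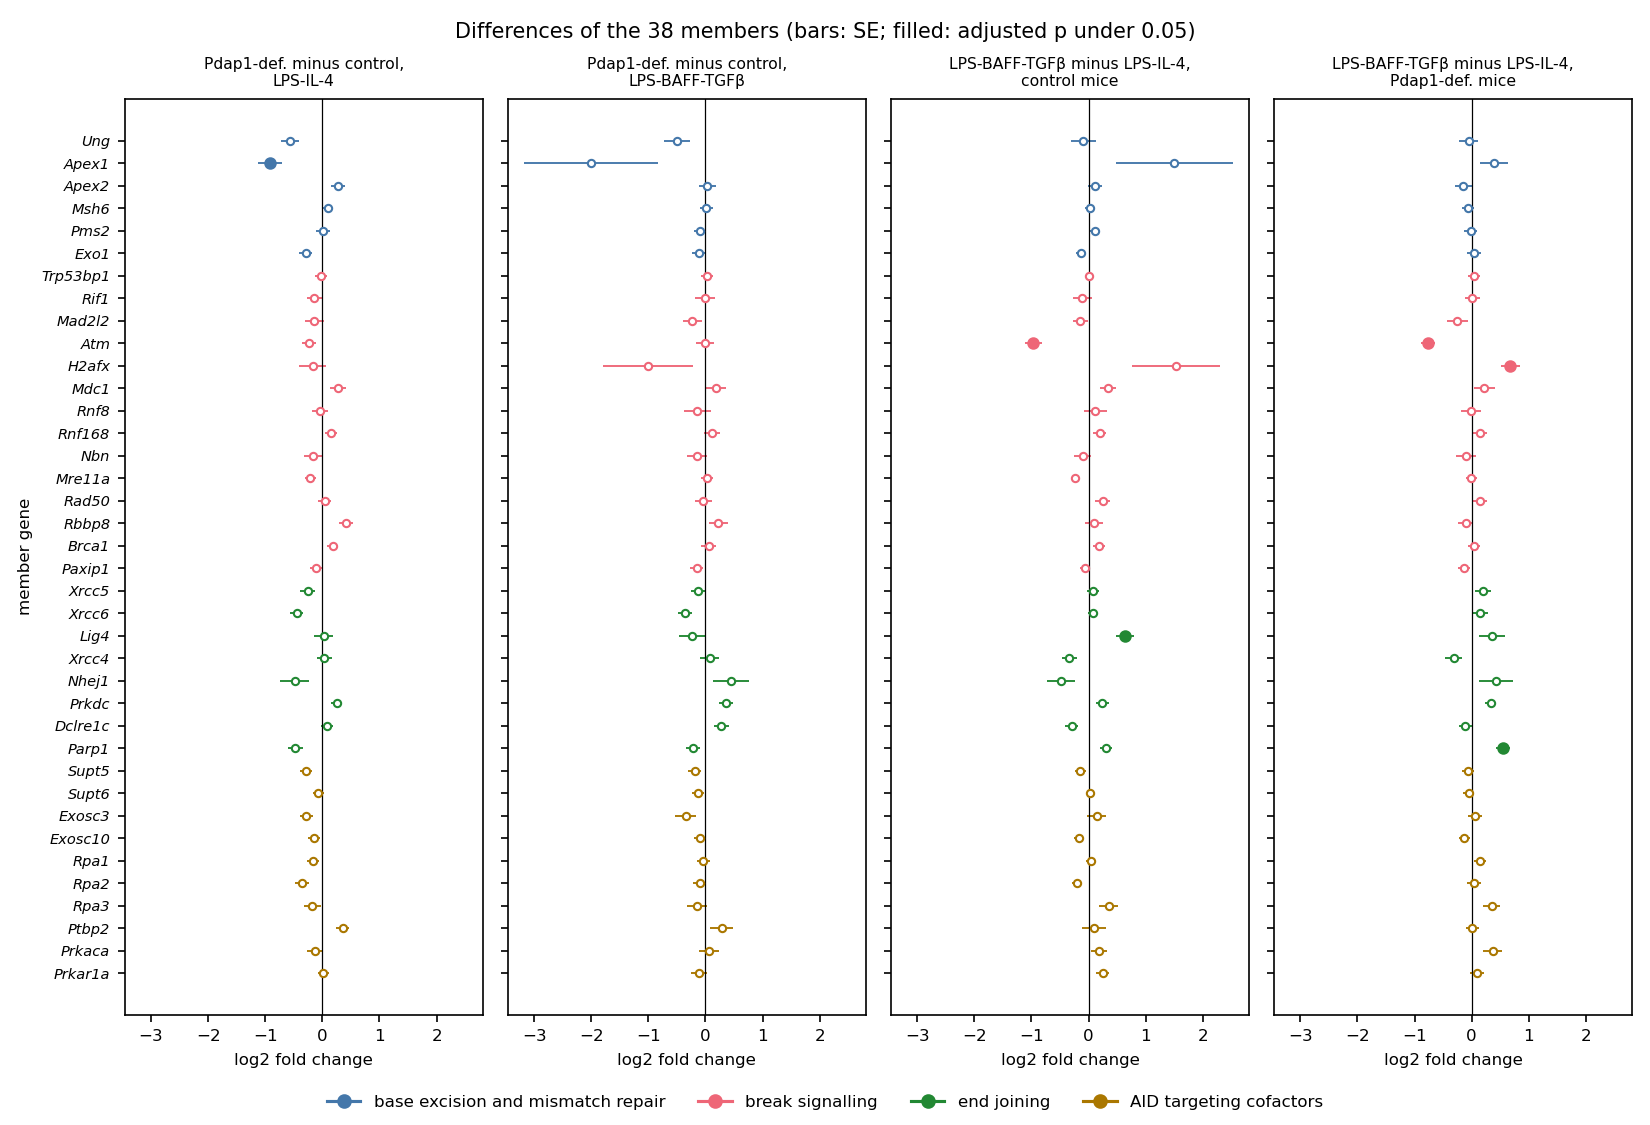
Log2 fold change of each of the 38 members in 4 comparisons (second group minus first, as titled), with bars of 1 SE and filled points for an adjusted p under 0.05 in edgeR. Most open points lie close to 0, Atm lies to the left in both comparisons of the stimulations, and the wide bars of Apex1 and H2afx appear wherever the control LPS-BAFF-TGFβ group enters.

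With LPS-BAFF-TGFβ the same question gave 0 members past the threshold in edgeR, against 0.462% of all genes tested. It gave 0 in each alternative, among them DESeq2, which had no adjusted p for Apex1. At an unadjusted p under 0.05 in edgeR, 1 member was higher (Prkdc) and 1 lower (Xrcc6), against 5.27% and 5.28% of all genes. The median over the 38 members was -0.10, against 0.0066 over all genes, and 24 were fitted lower. The groups did not overlap in 2 members above (Prkdc, Dclre1c) and in 5 below, against 9.55% and 9.08% of all genes.

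Xrcc6 was at 139, 127 and 122 CPM in the controls and 106, 86.9 and 108 CPM in the Pdap1-deficient mice, which did not overlap (log2 fold change -0.36, SE 0.12, adjusted p = 0.355 in edgeR). Prkdc was at 160.3, 204 and 196 CPM and 225, 255 and 234 CPM, with every Pdap1-deficient mouse above every control (log2 fold change 0.36, SE 0.13, adjusted p = 0.396 in edgeR). Ung was at 47.9, 26.9 and 29.7 CPM and 27.1, 20.2 and 26.1 CPM, and here Pdap1-deficient mouse 1 reached into the range of the controls (log2 fold change -0.51, SE 0.23, adjusted p = 0.475 in edgeR). Parp1 was at 596, 513 and 460.0 CPM and 468, 408 and 465 CPM, with overlap (log2 fold change -0.22, SE 0.13, adjusted p = 0.544 in edgeR). All 4 genes had the sign seen with LPS-IL-4, at differences that did not pass.

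Apex1 had the most extreme fitted value, a log2 fold change of -2.0 with an SE of 1.17, and it rests on 1 library. It was at 77.2, 6.45 and 9.38 CPM in the controls and 10.5, 6.81 and 6.33 CPM in the Pdap1-deficient mice, the value of 77.2 CPM being that of the deeply sequenced control. Without that library the log2 fold change was -0.0099. H2afx showed the same picture, at 153, 28.0 and 34.9 CPM in the controls and 43.1, 38.6 and 27.2 CPM in the Pdap1-deficient mice (log2 fold change -1.0, SE 0.79, adjusted p = 0.659 in edgeR), and without that library its sign turned, to 0.20. By group, the medians were -0.11 for base excision and mismatch repair, -0.0098 for break signalling, -0.028 for end joining and -0.11 for the AID targeting cofactors, with 0 calls in each. The cofactors Supt5 (-0.19) and Supt6 (-0.13), the adaptor Paxip1 (-0.16) and the mismatch repair gene Pms2 (-0.10) were the 4, beside Xrcc6, whose Pdap1-deficient mice all lay below the controls.

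The second question was how the 2 stimulations, which direct switching to different isotypes, differ in these genes. In control mice 1 member was higher in LPS-BAFF-TGFβ cultures (Lig4) and 1 lower (Atm) relative to LPS-IL-4, or 5.26% against 19.3% of all genes tested. That lower share was not seen without the deeply sequenced library, where 31.6% of the members passed against 31.8% of all genes. The median log2 fold change was 0.078 over the members and 0.029 over all genes. The groups did not overlap in 4 members above and 8 below, against 19% and 18.8% of all genes. Both cultures come from the same mice, and with a block for the mouse the paired count was 0 higher and 1 lower (Atm).

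Atm, the kinase at the head of the break response, was at 938, 908 and 845 CPM with LPS-IL-4 and 355, 529 and 493 CPM with LPS-BAFF-TGFβ in control mice 1, 2 and 3. Each culture with LPS-BAFF-TGFβ lay far below each with LPS-IL-4 (log2 fold change -0.96, SE 0.15, adjusted p = 0.00306 in edgeR). In Pdap1-deficient mice it was at 751, 690.5 and 867 CPM with LPS-IL-4 and 443, 419 and 497 CPM with LPS-BAFF-TGFβ, again without overlap (log2 fold change -0.76, SE 0.12, adjusted p = 0.00308 in edgeR). Atm passed in all 14 alternatives in either genotype, with adjusted p of 1.3e-07 to 0.021 in control and 1.9e-09 to 0.0458 in Pdap1-deficient mice. Without the deeply sequenced library the log2 fold change in control mice was -0.80. No exon of Atm overlaps another gene and none of its runs of 50 bases occurs in another annotated transcript. Its difference was the largest among members whose value did not rest on that library.

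Lig4 was at 10.05, 10.3 and 7.97 CPM with LPS-IL-4 and 15.1, 15.0 and 13.8 CPM with LPS-BAFF-TGFβ in control mice, and the groups did not overlap (log2 fold change 0.64, SE 0.15, adjusted p = 0.0231 in edgeR). The call held in 8 of 14 alternatives and was lost with the mouse as a block and when any mouse other than control mouse 1 with LPS-BAFF-TGFβ was left out of either culture. In Pdap1-deficient mice it was at 9.10, 10.5 and 9.41 CPM and 12.1, 8.88 and 15.8 CPM, which overlap, mouse 2 lying below its LPS-IL-4 culture and mice 1 and 3 above (log2 fold change 0.36, SE 0.22, adjusted p = 0.388 in edgeR). The difference between the genotypes in this change was not past the threshold (-0.28, SE 0.28, adjusted p = 0.989 in edgeR).

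In Pdap1-deficient mice 2 members were higher with LPS-BAFF-TGFβ (Parp1, H2afx) and 1 lower (Atm), against 11.5% of all genes tested. The groups did not overlap in 4 members above and 2 below, against 15% and 14.1% of all genes. The median was 0.037 over the members and -0.0025 over all genes. With the mouse as a block, 5 were higher (Prkaca, Rpa3, Prkdc, Parp1, H2afx) and 1 lower (Atm), or 15.8% of the members, while the count over all genes rose from 1675 to 3854, or 26.4%.

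Parp1 was at 353, 262 and 302 CPM with LPS-IL-4 and 468, 408 and 465 CPM with LPS-BAFF-TGFβ in Pdap1-deficient mice, and each mouse was higher in the second culture (log2 fold change 0.55, SE 0.13, adjusted p = 0.0209 in edgeR, under 0.05 in 10 of 14 alternatives). In control mice it was at 409, 430.0 and 428 CPM and 596, 513 and 460.0 CPM, also higher in each mouse (log2 fold change 0.31, SE 0.11, adjusted p = 0.0807 in edgeR). That value passed with the offset for GC content and length, with that offset and the block, and without the deeply sequenced library. The lowest Parp1 levels of the series were thus those of the Pdap1-deficient LPS-IL-4 cultures, and the LPS-BAFF-TGFβ cultures of both genotypes overlapped.

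H2afx, the histone variant that Atm phosphorylates at breaks, was at 23.7, 21.0 and 23.3 CPM with LPS-IL-4 and 43.1, 38.6 and 27.2 CPM with LPS-BAFF-TGFβ in Pdap1-deficient mice, without overlap (log2 fold change 0.68, SE 0.17, adjusted p = 0.0324 in edgeR, under 0.05 in 9 of 14 alternatives). In control mice it was at 17.5, 22.2 and 36.2 CPM and 153, 28.0 and 34.9 CPM, which overlap, with an SE of 0.76 on a log2 fold change of 1.53 that fell to 0.33 without the deeply sequenced library. Of its 50-base runs 9.66% occur in transcripts of other genes, H2A histones among them, and 10.2% of its exon bases lie on Gm44335 of the opposite strand.

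Prkdc was at 191, 194 and 182 CPM and 225, 255 and 234 CPM in the 2 cultures of the Pdap1-deficient mice, without overlap (log2 fold change 0.33, SE 0.10, adjusted p = 0.0561 in edgeR). Mre11a, a nuclease that senses breaks, came closest to the threshold after Atm and Lig4 in control mice by p, at 132, 131 and 124 CPM with LPS-IL-4 and 111, 107 and 112 CPM with LPS-BAFF-TGFβ (log2 fold change -0.23, SE 0.079, adjusted p = 0.0806 in edgeR). In Pdap1-deficient mice it was at 114, 108 and 115 CPM and 113, 107 and 116 CPM, which overlap (-0.0079, SE 0.094). Xrcc4 was lower with LPS-BAFF-TGFβ without overlap in both genotypes, at -0.34 (SE 0.13) in control and -0.32 (SE 0.16) in Pdap1-deficient mice on the log2 scale, and did not pass in either. Nhej1 was at -0.49 (SE 0.24) in control mice, without overlap, and at 0.42 (SE 0.30) in Pdap1-deficient mice, and these did not pass.

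The other genes of base excision and mismatch repair had log2 fold changes between the stimulations of -0.13 (Exo1), -0.09 (Ung), 0.027 (Msh6), 0.11 (Pms2) and 0.11 (Apex2) in control mice. In Pdap1-deficient mice these were 0.04, -0.055, -0.065, -0.017 and -0.15, in the same order. Apex1 was the exception in size, at 1.5 (SE 1.02) in control mice, which turned to -0.50 without the deeply sequenced library, and at 0.39 (SE 0.24) in Pdap1-deficient mice.

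The AID targeting cofactors differed little between the stimulations, with 0 calls in either genotype and medians of 0.07 and 0.045. Rpa3 had the largest difference of the group in control mice at 0.35 (SE 0.17), and Prkaca, the catalytic subunit of protein kinase A, in Pdap1-deficient mice at 0.37 (SE 0.16). Supt6 had the smallest ratio of highest to lowest level among the cofactors, at 210.4 to 245 CPM over the 12 libraries. Msh6 (228 to 266 CPM) and Trp53bp1 (86.4 to 106 CPM), the factor that protects ends for joining, varied by similar ratios.

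**Figure D3:**
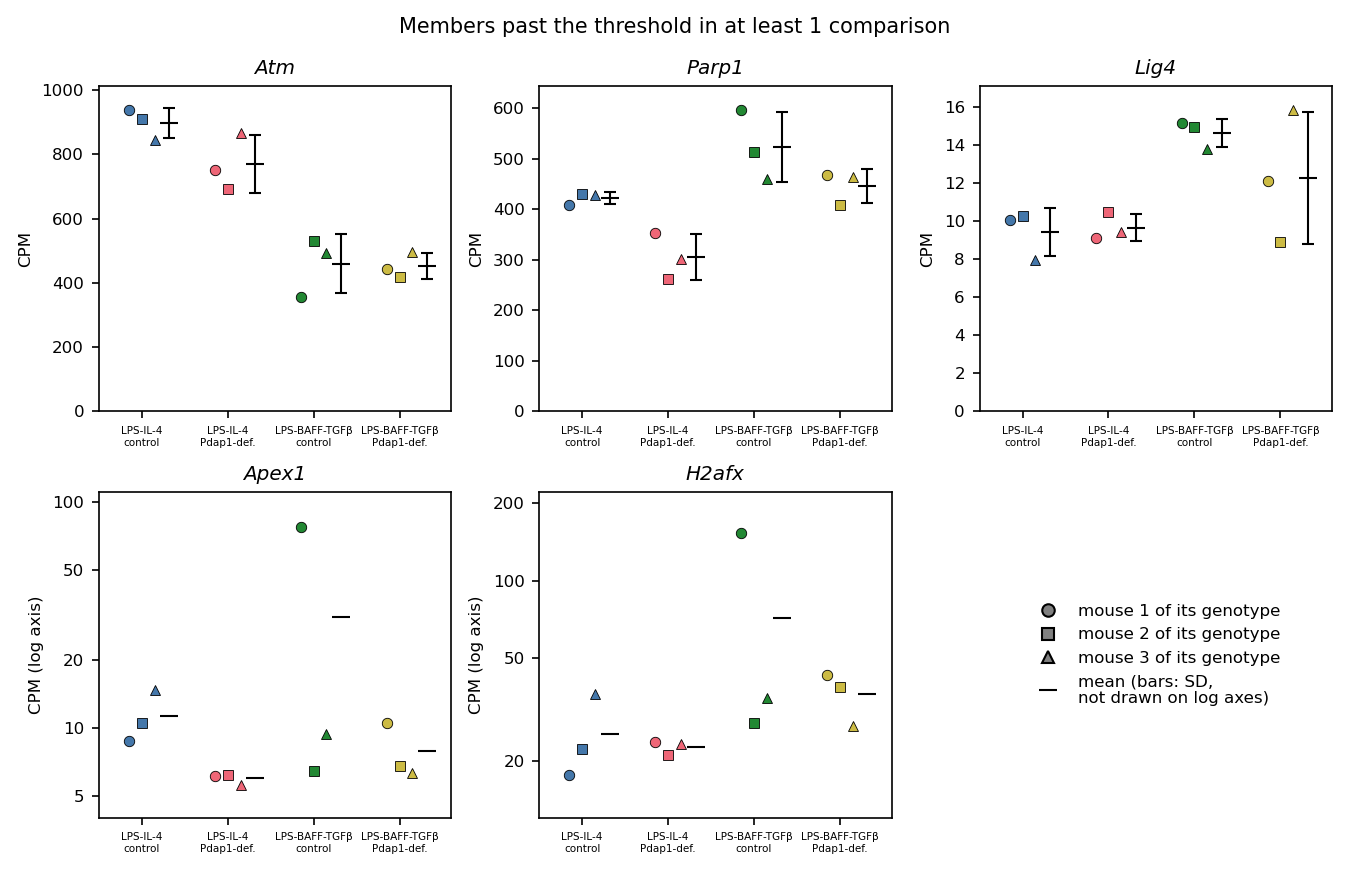
CPM of the 5 members that passed the threshold in at least 1 comparison, by stimulation and genotype. Symbols are mice, the same symbol being the same mouse within a genotype, dashes are means and bars are SD, which are not drawn on the logarithmic axes of Apex1 and H2afx. Atm lies between 690.5 and 938 CPM with LPS-IL-4 and between 355 and 529 CPM with LPS-BAFF-TGFβ, and control mouse 1 with LPS-BAFF-TGFβ stands apart in Apex1 and H2afx.

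Whether the effect of Pdap1 loss differs between the stimulations was examined by an interaction of genotype and stimulation fitted to the 12 libraries. No member passed in edgeR or DESeq2, and of the 15794 genes tested 0% passed in edgeR, while 6 genes, none of them a member, passed in DESeq2. At an unadjusted p under 0.05, 1 member was positive and 0 negative in edgeR, against 1.61% and 3.17% of all genes, and DESeq2 gave 0. The member was Nhej1, the least abundant by counts, at 3.46, 2.70 and 2.80 CPM in control and 2.10, 2.31 and 2.01 CPM in Pdap1-deficient mice with LPS-IL-4, and at 2.43, 1.82 and 1.95 CPM and 3.23, 3.30 and 2.23 CPM with LPS-BAFF-TGFβ. Its term was 0.92 (SE 0.37, adjusted p = 0.983 in edgeR), with every Pdap1-deficient mouse below the controls in the first culture and Pdap1-deficient mice 1 and 2 above them in the second. The next by p were Mre11a at 0.22 (SE 0.12) and Rpa2 at 0.24 (SE 0.16). For the members that passed elsewhere the term was 0.20 (SE 0.20) for Atm, 0.24 (SE 0.18) for Parp1, -1.11 (SE 1.19) for Apex1 and -0.86 (SE 0.86) for H2afx. Effects of Pdap1 loss on these genes were not shown to differ between the cultures.

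In the deeply sequenced control library the members departed from their group to different degrees. Against the mean of control mice 2 and 3 in the same culture, Apex1 was 9.75 times and H2afx 4.86 times as high, Ung 1.69 times and Exosc3 1.53 times. At the other end were Ptbp2 at 0.601 times, Rif1 at 0.668 times, Atm at 0.695 times and Nbn at 0.696 times. Over the 38 members the Spearman correlation of the log2 ratio with exon length was -0.53 and with GC content 0.63, given as a description, since the members share the library. Over 14079 tested genes the correlation with length was -0.19. Of the 5 members under 1500 bases the median log2 ratio was 0.61, against 0.14 over 2607 tested genes of that length, and of the 22 over 5000 bases it was -0.069, against -0.073 over 4952 genes. Replication-dependent histone genes also stood out there: Hist1h2ab was at 56.3, 2.55 and 4.26 CPM in control mice 1, 2 and 3, while Pip4p1, which overlaps Apex1, was at 40.2, 33.5 and 32.1 CPM. For Pdap1-deficient mouse 1 in the same culture Apex1 was at 10.5 CPM against 6.81 and 6.33 CPM in mice 2 and 3. The correlation with length was -0.44 over the members and -0.094 over all genes tested. What sets these values apart was not tested.

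Leaving the deeply sequenced library out of the comparison of stimulations in control mice raised the count of members past the threshold from 2 to 12, or 31.6% of them. Over all genes tested the count rose from 2874 to 4858, or 31.8%, so the share of the members was that of the background. Higher with LPS-BAFF-TGFβ were then Rnf168, Brca1, Rad50, Prkdc, Parp1, Ptbp2, Rbbp8 and Lig4, and lower were Rpa2, Ung, Mre11a and Atm. Rad50, for example, was at 191, 192 and 178 CPM with LPS-IL-4 and 179, 247 and 239 CPM with LPS-BAFF-TGFβ, and Ung at 32.9, 36.9 and 42.8 CPM and 47.9, 26.9 and 29.7 CPM, the first value of the second culture being that of the library left out. With an offset for GC content and length and all libraries kept, 2 were higher (Parp1, Lig4) and 4 lower (Xrcc4, Dclre1c, Mre11a, Atm), or 15.8% of the members against 25.9% of all genes tested.

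**Figure D4:**
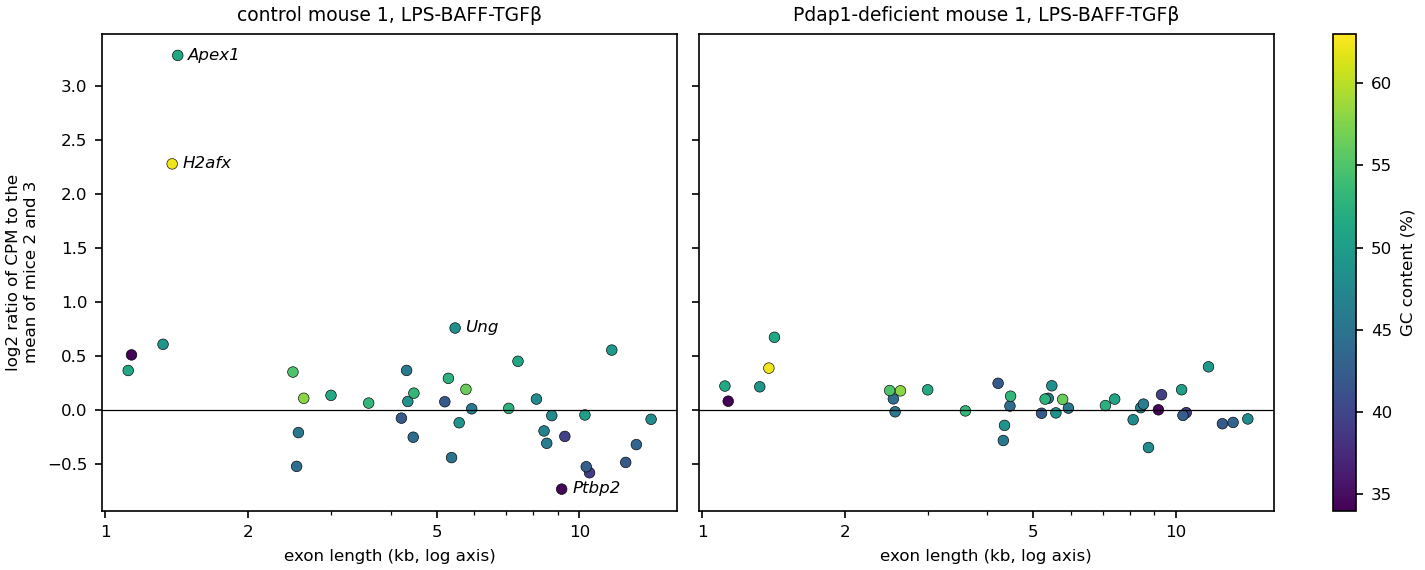
Log2 ratio of each member's CPM in mouse 1 to the mean of mice 2 and 3 of the same genotype with LPS-BAFF-TGFβ, against exon length on a log axis and coloured by GC content. In the deeply sequenced library of control mouse 1 (left) the shortest members lie high and long ones scatter on both sides of the zero line. Apex1 and H2afx lie far above the rest, and Pdap1-deficient mouse 1 (right) shows a weaker slope.

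Genes of the same pathways outside the 38 were counted from lists. Of all 15074 genes tested with LPS-IL-4, 421 were higher and 320 lower at the threshold in edgeR, and 546 and 657 in DESeq2. With LPS-IL-4, 30 further genes of AID targeting (other exosome subunits, transcription elongation factors and subunits of protein kinase A) were tested, 26 of them fitted lower in Pdap1-deficient mice, with a median log2 fold change of -0.18, and 0 were higher and 3 lower at the threshold (0 and 6 in DESeq2). The 3 were subunits of the RNA exosome: Exosc5 at 36.2, 33.0 and 38.5 CPM in the controls and 27.3, 23.9 and 22.2 CPM in the Pdap1-deficient mice (log2 fold change -0.56, SE 0.12, adjusted p = 0.0304 in edgeR), Exosc2 and Exosc7. Exosc2 was at 94.2, 99.1 and 96.2 CPM and 78.0, 64.7 and 70.5 CPM (log2 fold change -0.45, SE 0.11, adjusted p = 0.0425 in edgeR), and Exosc7 at 62.3, 67.0 and 70.5 CPM and 50.5, 49.6 and 52.4 CPM (log2 fold change -0.40, SE 0.10, adjusted p = 0.0476 in edgeR). In each of the 3 all Pdap1-deficient mice lay below all controls. Exosc3 and Exosc10, the exosome subunits among the 38, lay the same way without passing.

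Of 12 further end joining genes 1 was higher with LPS-IL-4, Tdp1, which clears blocked ends, at 42.7, 42.6 and 47.4 CPM in the controls and 57.1, 61.0 and 65.0 CPM in the Pdap1-deficient mice (log2 fold change 0.45, SE 0.10, adjusted p = 0.0356 in edgeR). None of the 21 further genes of base excision and mismatch repair, of the 22 of break signalling and of the 12 of homologous recombination passed in edgeR (at an unadjusted p under 0.05, 1 higher and 2 lower, 2 and 3, and 2 and 2, with 1 lower gene of homologous recombination past the threshold in DESeq2), with medians of -0.036, 0.033 and -0.067. With LPS-BAFF-TGFβ none of the genes of these 5 lists passed in edgeR or DESeq2, 2 being higher and 6 lower at an unadjusted p under 0.05 in edgeR, and the lists' medians lay between -0.16 and 0.0055.

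Between the stimulations, 3 of 22 further break signalling genes were higher and 4 lower with LPS-BAFF-TGFβ in control mice, and in Pdap1-deficient mice 0 higher and 2 lower. Of all genes tested 19.3% passed in either direction in control mice and 11.5% in Pdap1-deficient mice. Ercc6l2, a helicase-like factor of end joining in switching, was at 938, 921 and 816 CPM with LPS-IL-4 and 321, 468 and 493 CPM with LPS-BAFF-TGFβ in control mice (log2 fold change -1.06, SE 0.17, adjusted p = 0.00297 in edgeR). In Pdap1-deficient mice it was at 711, 885 and 917 CPM and 399.8, 463 and 485 CPM (log2 fold change -0.90, SE 0.13, adjusted p = 0.00204 in edgeR), beside log2 fold changes of -0.96 and -0.76 for Atm. Hmces, a sensor of abasic sites, was low throughout, at 1.65, 2.34 and 2.37 CPM and 0.318, 0.122 and 0.122 CPM in control mice. In Pdap1-deficient mice Hmces was at 3.27, 5.17 and 4.34 CPM and 0.323, 0.206 and 0.117 CPM. It was past the threshold in both genotypes, and no fold is given, since its LPS-BAFF-TGFβ values rest on a few reads in all but the deeply sequenced library. Uimc1, a ubiquitin reader at breaks, was at 68.2, 64.6 and 61.2 CPM and 97.4, 97.8 and 99.4 CPM in control mice and rose (log2 fold change 0.60, SE 0.083, adjusted p = 0.00156 in edgeR).

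Among the further base excision and mismatch repair genes 2 were higher and 2 lower in control mice, and 1 was higher and 0 lower in Pdap1-deficient mice. The glycosylase Mbd4 was the one higher in both, at 33.6, 32.8 and 30.6 CPM with LPS-IL-4 and 52.0, 58.0 and 58.4 CPM with LPS-BAFF-TGFβ in control mice (log2 fold change 0.80, SE 0.10, adjusted p = 0.00101 in edgeR). In Pdap1-deficient mice it was at 37.6, 40.7 and 43.4 CPM and 61.9, 59.3 and 59.2 CPM (log2 fold change 0.57, SE 0.11, adjusted p = 0.00705 in edgeR). Further end joining genes held 1 higher call in control mice (Polm) and 0 in Pdap1-deficient mice, further AID targeting genes 1 higher (Prkacb) and 1 lower (Prkar2a) in control mice and 1 higher (Prkacb) in Pdap1-deficient mice, and homologous recombination 0 in either. Over all 14882 genes tested in control mice 1486 were higher and 1388 lower, and over all 14617 in Pdap1-deficient mice 814 and 861. Of 20 G2/M genes tested, 5 were higher in control and 3 in Pdap1-deficient mice with LPS-BAFF-TGFβ and 0 lower, and of 22 S phase genes 0 were higher and 1 lower (Ccne1) in each. The part of these cell cycle genes in the members' differences was not tested.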

How the data were processed

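The authors trimmed reads with Trim Galore 0.6.1, mapped them to GRCm38 with STAR 2.6 and counted them per Ensembl gene with HTSeq 0.9.1. They deposited these counts without normalization, and a normalized table that was not used. The annotation release and the strand setting are not given in the sources used here. The labels name CH12 as the cell line and a stranded mRNA kit, while the study's methods name primary splenic B cells and a ribosome-depleted total RNA kit, which was followed. Symbols, exon lengths, overlaps and transcripts came from GENCODE M21, and promoter windows from RefSeq (GRCm38.p6). Some genes of the pathway are not reported here.

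Counts were tested with edgeR 4.0.16 (robust quasi-likelihood F test after filterByExpr and TMM) in R 4.3.3, each comparison on its 6 libraries and the genotype by stimulation term on 12, at an adjusted p (Benjamini-Hochberg over all genes tested) under 0.05. Alternatives were DESeq2 1.42.0, its size factors in edgeR, no filter, a minimum of 10 counts in all libraries, leaving out each library in turn, a replicate or mouse block, an offset for GC content and length (loess, span 0.3) with and without the block, and all 12 libraries in one fit. Between the stimulations and in the genotype by stimulation term, the other culture of a mouse whose library was left out was kept. Steps were tested on simulated data. The mice of a group are separate animals, with 1 culture per stimulation. The same mouse number marks 1 mouse in both stimulations by the series' design. Ddx3y levels split the mice alike in both, but do not tell mice of the same sex apart. Deviations from the group means correlated at -0.18, 0.34 and -0.023 for control mice 1, 2 and 3 and at 0.58, 0.62 and 0.29 for Pdap1-deficient mice. The highest correlation with another number was 0.17, -0.12 and 0.37 in control and 0.012, -0.19 and -0.098 in Pdap1-deficient mice. For control mice 1 and 3 the pairing thus rests on the series' design. Between genotypes a number names no shared mouse.

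The members and the lists were chosen with earlier results of these data known. Named in each comparison are members past the threshold and the 3 with the smallest p, in each group those with the highest and lowest level per kb, and of other lists at most 3 genes past the threshold. Other members are given by their group. Of 187 symbols on the other lists 186 were matched. Figures were drawn with matplotlib 3.10.9.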

Additional observations from a re-analysis of the deposited data

How the results depend on the processing

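Of the counts of members past the threshold, those for Pdap1 loss with LPS-BAFF-TGFβ and for the genotype by stimulation term were 0 under every alternative. For the first of these DESeq2 had no adjusted p for Apex1. For Pdap1 loss with LPS-IL-4 the count of 1 became 4 with DESeq2, 6 without the filter on low counts and 2 with at least 10 counts in every library, and ranged from 0 to 6 with each mouse left out, while the calls over all genes went from 741 to 1217, 1694 and 764, and to 69 to 1759. For the stimulations in control mice the count of 2 became 1 with the mouse as a block. It became 6 with the offset for GC content and length and 4 with both. The calls over all genes went from 2874 to 1989, 3854 and 3328. With each library left out in turn, the other culture of that mouse being kept, the count ranged from 1 to 12. The calls over all genes then ranged from 1608 to 4858. In Pdap1-deficient mice the count of 3 became 6 with the block and 2 with the offset, where the call of Parp1 was lost. With the offset and the block it became 5. The calls over all genes went from 1675 to 3854, 1786 and 3889. With each library left out in the same way the count ranged from 1 to 4, and the calls over all genes from 908 to 2235. The replicate number as a block changed no call between genotypes, where same-numbered mice deviated together by correlations of -0.21 to 0.10. The sign of some differences turned, those of Apex1 and H2afx that involve the control LPS-BAFF-TGFβ group among the largest fitted. For Pdap1 loss with LPS-IL-4, H2afx had log2 fold changes of 0.070 with the offset and 0.097 with the offset and the block and -0.39 to 0.16 with each mouse left out, and Lig4 of -0.078 with the offset, -0.078 with both and, with each mouse left out, -0.095 to 0.078. With LPS-BAFF-TGFβ, Atm had 0.0069 with the block and -0.17 to 0.10 with each mouse left out, and H2afx -1.38 to 0.20. Between the stimulations in control mice Apex1 had -0.50 to 1.96 with each library left out. In the genotype by stimulation term, likewise, Apex1 had -1.57 to 0.90 and H2afx -1.23 to 0.35. The cause of these changes was not tested. Depth limits Nhej1, with as few as 15 counts, more than the other members.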
